A study of Gallus gallus with 8 samples.

Results

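The genes of gluconeogenesis, the pathway by which the liver makes new glucose, and 2 of its transcriptional regulators were examined in livers of broiler chickens (Gallus gallus) raised at low and at high stocking density. Members were the rows of the authors' deposited table whose name equalled one of 8 listed symbols and whose group mean was above 0. Of the 8 symbols, 6 were found, out of 23613 genes in the table. They were PCK1, FBP1, G6PC and SLC37A4, which encode 3 enzymes and a transporter, and the regulators PPARGC1A and FOXO1. PCK2 and PC had no row under those names and were not analysed here. All 6 had a group mean of at least 1, so none lay near the limit of the rule.

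The birds were broilers labelled male, and livers were taken on day 46. Final target densities were 24.4 kg/m2 (5 lb/ft2, treatment A, here low density) and 39.1 kg/m2 (8 lb/ft2, treatment D, here high density). Each group had 4 libraries, and every library pooled RNA from 4 birds of 1 treatment, so each group stands for 16 birds and no library shows a single bird. The sources used here do not give the breed, the diet or the feeding state at sampling.

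Gluconeogenesis runs largely along the enzymes of glycolysis in reverse, and bypasses the irreversible glycolytic steps with enzymes of its own. Pyruvate carboxylase and phosphoenolpyruvate carboxykinase convert pyruvate to phosphoenolpyruvate, fructose-1,6-bisphosphatase removes a phosphate further along, and glucose-6-phosphatase releases free glucose. In mammals glucagon, glucocorticoids and low insulin raise transcription of these genes through the factors CREB, FOXO1 and HNF4A and the coactivator PGC-1alpha. In chicken liver the mitochondrial carboxykinase, the product of PCK2, is known as the main form, and the cytosolic form is the product of PCK1.

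The authors' deposited table holds 1 comparison, high against low density, with 0 columns of values per library, so values per sample, their spread and the sequencing depth of each library are unknown. A positive log2 fold change is higher at high density. The table gives the higher of both group means on a scale it does not name. The group of the higher mean was taken from the sign of the log2 fold change. The lower mean was computed here from the fold change, and means are therefore not used to say that 1 gene was more abundant than another. Across genes they served to set lower limits on the mean and to find genes of a like deposited mean. They also served to add up marker lists and to name the genes with the largest part of a sum. The standard error (SE) given for each log2 fold change was implied by its p-value under the assumption of a Wald test, and the 95% intervals rest on the same assumption.

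None of the 6 genes passed an adjusted p of 0.05, where 55 of 20170 genes with a result did (0.273%). An unadjusted p under 0.05 was found for 3 of the 6, PCK1 with a higher value at high density and G6PC and PPARGC1A with lower values. Over all genes the same limit was met by 1126 (5.58%), of which 496 (2.46% of genes) were higher and 630 (3.12%) lower. The 3 others, FBP1, SLC37A4 and FOXO1, had log2 fold changes of -0.06, 0.05 and 0.02. Over the 6 genes the median log2 fold change was -0.02, beside 0.001 over all genes with a result and -0.008 over the 10867 genes whose mean reached 1.

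**Figure D1:**
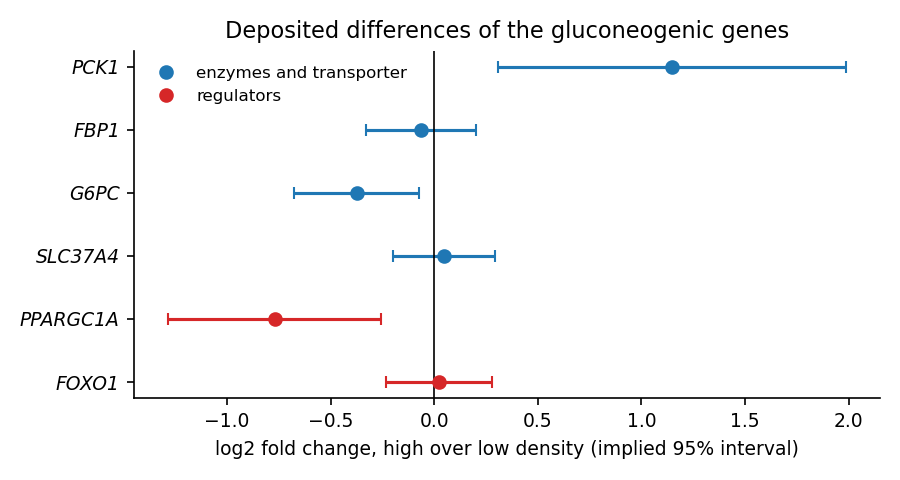
Log2 fold change of each gene in the authors' deposited table, high over low density (x axis), with one row per gene; points are deposited values and bars the implied 95% intervals, blue for enzymes and the transporter and red for regulators. PCK1 lies at 1.15, G6PC at -0.37 and PPARGC1A at -0.77 with intervals that leave out 0, and the intervals of FBP1, SLC37A4 and FOXO1 include it; no gene passed the adjusted threshold.

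PCK1 encodes the cytosolic phosphoenolpyruvate carboxykinase, which forms phosphoenolpyruvate from oxaloacetate (ENSGALG00000007636, GRCg6a chromosome 20, 11554555 to 11562277, minus strand). Its mean in the authors' deposited table was 47.3 at high density, against 21.4 computed for low density from the deposited 2.22-fold difference. The log2 fold change was 1.15 (implied SE 0.43); the authors' deposited table gave p = 0.00736, adjusted to 0.604. The implied interval ran from 1.24-fold to 3.96-fold. Only 15 of the 10867 genes whose mean reached 1 (0.138%) had a larger positive log2 fold change, yet the p-value of PCK1 ranked 287 among 20170.

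The implied error of PCK1 was wide for its level. Among the 1316 other genes with a mean within 2-fold of its own, the median implied SE was 0.13, with quartiles of 0.12 and 0.14, and the implied SE of PCK1 was 3.31 times that median. A larger implied SE was found for 5 of these genes (0.38%). The 5 were a histone gene, HIST2H4B, the model RF00017_2 and 3 models without a symbol, and all were looked up after their values were seen. Which libraries were high or low cannot be seen in the authors' deposited table.

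PCK1 is also the 1 gene of the 6 that another gene model overlaps. ENSGALG00000053815 (chromosome 20, 11543521 to 11577455, plus strand) covers it on the opposite strand. Its mean was 0.83 and its log2 fold change 0.94 (p = 0.0603 in the authors' deposited table), in the same direction as PCK1. The sources used here do not say whether counting used strand, so reads of the pair cannot be told apart. The neighbour on either side had smaller values, 0.13 for PMEPA1 and 0.06 for ENSGALG00000049296 (both named after their values were seen), as log2 fold changes in the authors' deposited table.

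**Figure D2:**
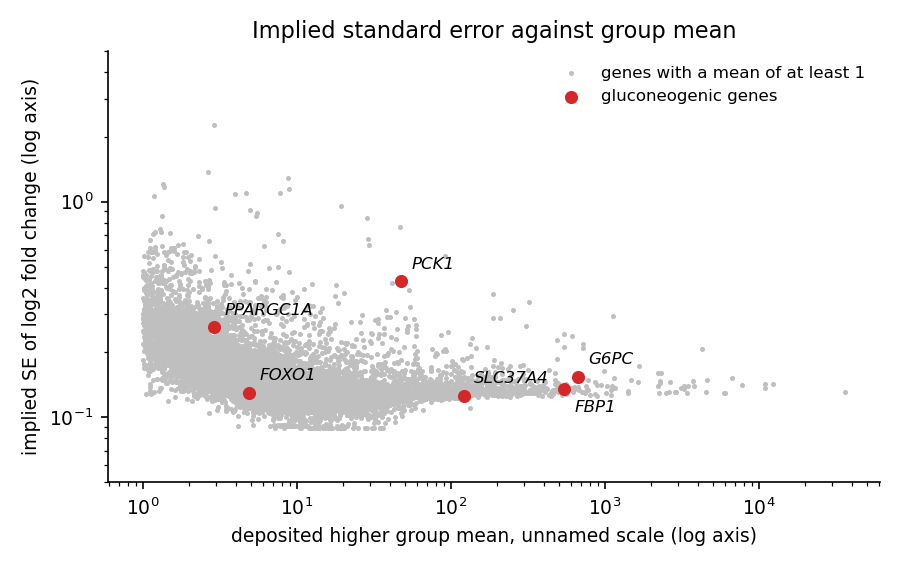
Implied standard error of the log2 fold change (y axis, log scale) against the deposited higher group mean (x axis, log scale, unit not named) for all genes whose mean reached 1 in grey and the 6 gluconeogenic genes in red. PCK1, with an implied SE of 0.43, stands above nearly all genes of its level, while FBP1, SLC37A4 and FOXO1 lie at or under the middle of theirs.

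FBP1 encodes fructose-1,6-bisphosphatase, the enzyme that opposes phosphofructokinase (ENSGALG00000012613, chromosome Z, 41459118 to 41469158, minus strand). The mean was 541.7 at low density in the authors' deposited table and 518.6 as computed for high density. The log2 fold change was -0.06 (implied SE 0.14, p = 0.644 in the authors' deposited table). Ratios of high to low density from 0.796 to 1.15 lay within the implied interval. Its neighbour FBP2, named after its value was seen, which encodes the form known from muscle in mammals, lies 4533 bases away on the same strand and had a mean of 0.759 and a log2 fold change of -0.05 (p = 0.861 in the authors' deposited table).

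FBP1 lies on the Z chromosome, of which male birds carry a pair and females a single copy. The 481 Z genes with a mean of at least 1 had a median log2 fold change of -0.02, and the 10362 autosomal genes one of -0.007. Of 92 genes of the female W chromosome with a value, 70 were higher at high density, with a median of 0.89 in the authors' deposited table. Limiting the W genes to means from 0.5 upward left 12, and 12 of the 12 had positive log2 fold changes (median 0.94). Values on a female chromosome are at odds with the male label of the birds, and their source was not tested. The part of the birds' sex was not tested for FBP1, nor for PCK1, G6PC, PPARGC1A or any other gene or list here.

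G6PC encodes the catalytic subunit of glucose-6-phosphatase, which carries out the last step before glucose leaves the cell (ENSGALG00000030034, chromosome 27, 7903742 to 7906398, plus strand). Its mean was 668.3 at low density in the authors' deposited table, against 516.1 computed for high density. The log2 fold change was -0.37, a 1.29-fold lower value (implied SE 0.15); the authors' deposited table gave p = 0.0155, adjusted to 0.748. The implied interval of the ratio ran from 0.626 to 0.952. Of the 10867 genes whose mean reached 1, 485 (4.46%) had a more negative log2 fold change.

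The G6PC model spans 2657 bases, and genes no longer than this mostly had lower values at high density. There were 1070 others whose mean reached 1, and 710 of these (66.4%) were lower. Their median log2 fold change was -0.09. Of the 9796 genes of longer span 50.6% were lower, with a median of -0.002. A log2 fold change at or below that of G6PC was found in 163 of the short genes (15.2%) and in 322 of the longer ones (3.29%) in the authors' deposited table. The part of gene span in the difference of G6PC was not tested.

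**Figure D3:**
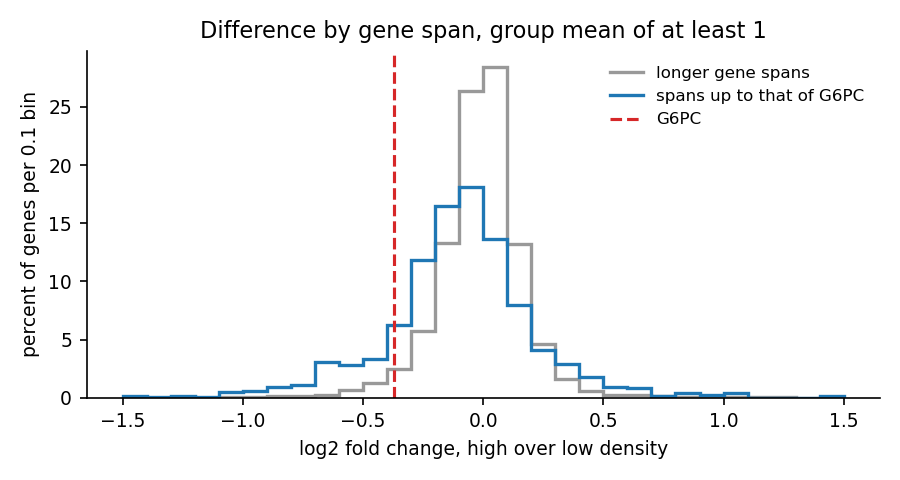
Distribution of the deposited log2 fold change, high over low density (x axis, bins of 0.1), as a percent of genes (y axis) for genes whose mean reached 1; blue is the 1070 genes spanning no more than 2657 bases, grey the 9796 genes with a longer span, and genes beyond 1.5 in either direction are not drawn. The short genes are shifted to negative values, and the dashed line marks G6PC at -0.37.

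SLC37A4 encodes the transporter that brings glucose 6-phosphate into the endoplasmic reticulum, where the glucose-6-phosphatase enzyme acts (ENSGALG00000007716, chromosome 24, 5667700 to 5675589, minus strand). Its mean was 120.9 at high density in the authors' deposited table, against 117.1 computed for low density, a log2 fold change of 0.05 (implied SE 0.13, p = 0.713). The implied interval of the ratio ran from 0.87 to 1.23. G6PC and SLC37A4 serve 1 enzyme system and their deposited log2 fold changes were -0.37 and 0.05. Whether those values differ from each other could not be tested without values per library.

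PPARGC1A encodes PGC-1alpha, a coactivator that in mammals raises mitochondrial and gluconeogenic genes in the fasted liver (ENSGALG00000042851, chromosome 4, 73938490 to 74100704, plus strand). The mean was 2.91 at low density in the authors' deposited table and 1.71 as computed for high density. The log2 fold change was -0.77, a 1.7-fold lower value (implied SE 0.26); the authors' deposited table gave p = 0.00337, adjusted to 0.399. It was the lowest p of the 6 genes, ranked 198 among 20170. The implied interval of the ratio ran from 0.411 to 0.838. Its implied SE was 1.56 times the median of the 4360 genes with a mean within 2-fold, and 497 of those (11.4%) had a larger one. Of the enzyme genes with an unadjusted p under 0.05, PCK1 differed in the direction opposite to the coactivator. G6PC differed in the same direction as the coactivator.

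FOXO1 encodes the forkhead factor that insulin signalling keeps out of the nucleus (ENSGALG00000017034, chromosome 1, 171900251 to 171963536, plus strand). Its mean was 4.88 at high density in the authors' deposited table and 4.81 as computed for low density. The log2 fold change was 0.02 (implied SE 0.13, p = 0.87 in the authors' deposited table), with an implied interval of the ratio from 0.85 to 1.21. FOXO1 activity is set largely by phosphorylation, which RNA levels do not show.

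Around these 6 genes, 133 further genes were listed in 7 groups by role, and 113 had a value. Of the 113, 55 were higher and 58 lower at high density, and the median log2 fold change was -0.004. IGFBP1 alone passed the adjusted threshold, beside 0.273% of all genes. An unadjusted p under 0.05 was found for 8 (1 higher and 7 lower), beside 2.46% of all genes higher and 3.12% lower.

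Substrate entry covers lactate, alanine, glycerol and mitochondrial transport. Of 21 genes with a value, 10 were higher and 11 lower (median -0.01), none was called, and 1 had an unadjusted p under 0.05. That gene was MPC1, a subunit of the carrier that brings pyruvate into mitochondria, where pyruvate carboxylase acts. Its mean was 106.8 at low density in the authors' deposited table and 67.0 as computed for high density, a log2 difference of -0.67 (implied SE 0.18, adjusted p = 0.0521). Adjusted over the 20170 genes with a result alone, its p was 0.0445. Its partner subunit MPC2, named after its value was seen, had a log2 fold change of -0.10 (p = 0.455 in the authors' deposited table). The glycerol phosphate dehydrogenase GPD1 had a value of 0.69 (p = 0.0647), with a model of 700 bases, and the lactate dehydrogenase subunit LDHB one of -0.28 (p = 0.067), as log2 fold changes in the authors' deposited table.

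The enzymes that gluconeogenesis shares with glycolysis had small values of 1 sign. All 8 were lower at high density, with log2 fold changes from -0.12 to -0.04 and a median of -0.09, and 0 had an unadjusted p under 0.05. Among all genes whose mean reached 1, 5669 of 10867 were lower. Genes with a deposited mean within 2-fold of that of FBP1 had a median of -0.08, and those within 2-fold of G6PC one of -0.06. The lowest p-values were those of ALDOC (-0.12, p = 0.331), PGAM1 (-0.12, p = 0.347), which 1 model overlaps on the other strand, and ENO1 (-0.11, p = 0.431), an aldolase, the phosphoglycerate mutase and an enolase, as log2 fold changes in the authors' deposited table. The implied SE of these 3 was between 0.12 and 0.13, larger than the differences themselves.

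The opposed glycolytic steps and the pyruvate dehydrogenase switch held 17 genes with a value, 8 higher and 9 lower (median -0.0009), with 0 called. PDK4, the kinase that turns off pyruvate dehydrogenase and so spares pyruvate for glucose, was the 1 gene with an unadjusted p under 0.05. Its mean was 41.1 at low density in the authors' deposited table and 25.7 as computed for high density, a log2 fold change of -0.68 (implied SE 0.24, p = 0.00397, adjusted p = 0.434). The other genes of lowest p were the hexokinase HK2 (-0.20, p = 0.115), which 6 models overlap, 2 of them on its strand, and the dehydrogenase subunit PDHA1 (-0.19, p = 0.16), which 1 model overlaps on the other strand, as log2 fold changes in the authors' deposited table. PDK1, PDK2 and PDK3, named after their values were seen, had log2 fold changes between -0.09 and 0.06.

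Relatives of the 6 genes, the glucose exporters and other sugar phosphate enzymes held 12 genes with a value. Of these, 8 were higher and 4 lower (median 0.02), with 0 called. FOXO6, a forkhead factor of the FOXO family, had a value of -0.82 on the log2 scale (implied SE 0.41, p = 0.0428) at a mean of only 0.253 in the authors' deposited table. The phosphoglucomutase PGM2 and SLC2A2, the glucose transporter of the hepatocyte membrane, both had 0.13 (p = 0.316 and p = 0.318 in the authors' deposited table). The following were named after their values were seen. G6PC2 and G6PC3, the other glucose-6-phosphatase genes, had log2 fold changes of 0.24 and 0.02, and the transporters SLC37A1, SLC37A2 and SLC37A3 lay between 0.006 and 0.08 in the authors' deposited table.

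The glucagon and cAMP arm, which turns hormone binding into CREB activity, held 20 genes with a value, 10 higher and 10 lower (median 0.004), with 0 called. PDE4B, a phosphodiesterase that breaks down cAMP, had a mean of 14.1 at low density in the authors' deposited table and 9.25 as computed for high density. Its log2 fold change was -0.61 (implied SE 0.25, p = 0.016 in the authors' deposited table). The nuclear receptor NR4A2 had -1.34 (p = 0.0722) at a mean of 0.0709, and the phosphodiesterase PDE3B had -0.22 (p = 0.0869), as log2 fold changes in the authors' deposited table. The glucagon receptor GCGR, at -0.004 (implied SE 0.13), and CREB1, at 0.07 (implied SE 0.13), were named after their values were seen.

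In the insulin and AMPK arm, 9 of 17 genes with a value were higher and 8 lower (median 0.03), and 2 had an unadjusted p under 0.05, both lower. IGFBP1, a secreted binding protein that insulin represses and FOXO1 activates in mammals, fell from 59.6 in the authors' deposited table to a computed 28.3 (log2 difference -1.07, implied SE 0.27, adjusted p = 0.0298). SIK1, a kinase that cAMP induces and that restrains CREB coactivators, had a mean of 20.1 at low density and a computed 8.82 at high density. The log2 fold change of SIK1 was -1.19 (implied SE 0.38); the authors' deposited table gave p = 0.00166, adjusted to 0.269. SIK3 had a log2 fold change of 0.19 (p = 0.068 in the authors' deposited table). INSR, the insulin receptor gene, named after its value was seen, had one of -0.19 (p = 0.133 in the authors' deposited table).

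Among other transcription regulators, 10 of 18 genes with a value were higher and 8 lower (median 0.03), none was called, and 1 of each direction had an unadjusted p under 0.05. ONECUT1, a hepatocyte and bile duct factor, had a log2 fold change of 0.32 (p = 0.0295) and the deacetylase SIRT1 one of -0.24 (p = 0.0497) in the authors' deposited table. CREB3L3, a membrane-bound liver factor, had -0.27 (p = 0.0906 in the authors' deposited table). SIRT1 and CREB3L3 are each overlapped by 1 model on the other strand. HNF4A and the glucocorticoid receptor NR3C1, named after their values were seen, had log2 fold changes of 0.20 (p = 0.213) and -0.07 (p = 0.618) in the authors' deposited table.

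**Figure D4:**
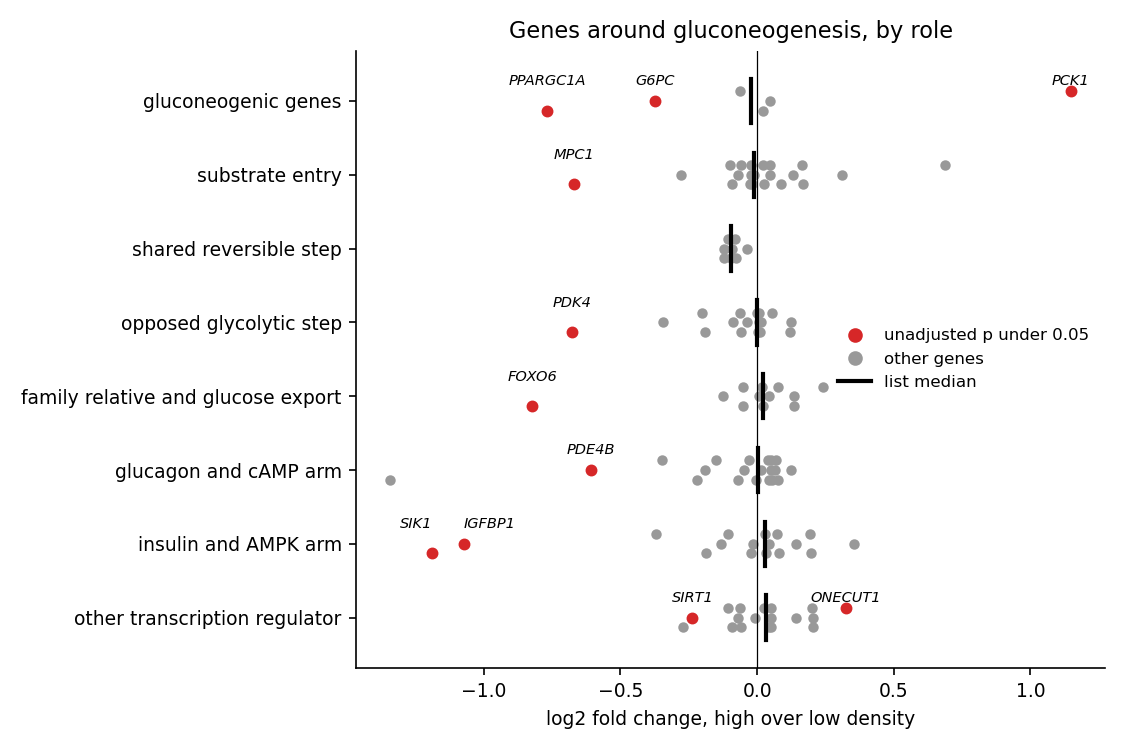
Deposited log2 fold change, high over low density (x axis), of each gene in the gluconeogenic group and the 7 surrounding groups (rows); each point is a gene, red where its unadjusted p was under 0.05, and black bars are group medians. Medians lie between -0.09 and 0.03. Of the 119 points 11 are red, and 9 of the 11 lie below 0, with PCK1 at 1.15 and ONECUT1 at 0.32 above it. Over all genes with a result 5.58% had such a p, 2.46% higher and 3.12% lower.

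The tissue was checked against cell type markers, and listed markers without a row were left out. A value was found for 11 of 14 T and NK cell, 10 of 12 heterophil and 10 of 15 erythroid markers. It was found for 7 of 10 macrophage, 9 of 11 cholangiocyte and 13 of 13 stellate cell and fibroblast markers. All 14 hepatocyte markers had a value, 8 higher and 6 lower at high density (median log2 fold change 0.03), and their summed means were 73089 at low and 71563 at high density as computed from the authors' deposited table. ALB (36025 and 34746) and APOA1 (12425 and 12027), named after their values were seen, made up most of the hepatocyte sums. T and NK cell markers were lower in 11 of 11 cases (median -0.35, summed means 66.7 and 48.7), 4 of them at an unadjusted p under 0.05. The 1 marker called was in that list, GNLY, a cytolytic granule protein, named after its value was seen. GNLY fell by 0.58 on the log2 scale (adjusted p = 0.0396 in the authors' deposited table). Its means of 32.1 at low and 21.5 at high density were the largest part of the T and NK cell sums. Its model spans 1477 bases, fewer than that of G6PC, and the part of gene span in its value was not tested. Heterophil markers were higher in 9 of 10 cases (median 0.93, 30.3 and 48.4), with 4 higher and 1 lower at an unadjusted p under 0.05. Erythroid markers were higher in 9 of 10 (median 0.32, 292.4 and 417.5), with 2 higher and 1 lower at that limit. HBBA (133.8 and 208) and HBA1 (138.2 and 186.5), named after their values were seen, made up most of the erythroid sums. Markers were lower in 7 of 7 cases for macrophages (median -0.08, 414.0 and 383.7), in 8 of 9 for cholangiocytes (median -0.27, 151.2 and 132.3) and in 10 of 13 for stellate cells and fibroblasts (median -0.24, 375.0 and 336.6). At an unadjusted p under 0.05, 0 macrophage, 2 cholangiocyte and 3 stellate cell and fibroblast markers were lower. Beside these counts, 10152 of all 20170 genes with a result were higher and 10018 lower, and 0.273% were called. Summed means over all genes with a result, by the same computation, were 397414 at low and 388315 at high density. An unadjusted p under 0.05 was met by 2.46% of all genes as higher and 3.12% as lower. No marker with a row in the authors' deposited table stood at 0. The part of these cell types in the values of PCK1, G6PC and PPARGC1A was not tested, and in whole tissue fewer cells of a type and less RNA per cell cannot be told apart.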

How the data were processed

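Liver RNA of 8 pooled libraries was sequenced on an Illumina HiSeq, per the labels' protocols. The file used is the authors' deposited table of 1 comparison. Its columns, per the file headers, are the higher group mean (on another scale, not named), the log2 fold change, the fold change with its sign, and the p-value before and after adjustment. Positions are on GRCg6a, which the submitters' processing notes name as the build. The aligner, the counter, the scaling and the test were not given in the sources used here, and depth is unknown.

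Rows with every value at 0 (3443 of 23613) were treated as having no result. The deposited adjusted p-value was recomputed as a Benjamini-Hochberg adjustment over all 23613 rows with a largest difference of 2.4e-05. A gene was called at a deposited adjusted p-value under 0.05. No test was rerun: the design named tests on values per library first, and the deposited comparison applied. Where libraries come from separate flocks or pens is not stated, so p-values may measure only the spread between these pools. The implied SE was the size of the log2 fold change over the standard normal deviate that its two-sided p-value stands for. This computation was tested on simulated Wald p-values. The simulation cannot show whether the deposited p-values came from a Wald test.

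Members and lists were chosen with earlier results of these data known. Named genes were the members, overlapping models, and, of each of the 7 lists by role, genes called and the 3 with the lowest p-values; other genes are marked in the text as named after their values were seen. Python 3.11.15, pandas 2.3.3 and scipy 1.17.1 were used. Stricter thresholds and other sets of genes to adjust over were tried as alternatives.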

Additional observations from a re-analysis of the deposited data

How the results depend on the processing

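None of the 6 genes was called under any of the 5 alternatives run. A threshold of 0.01 and Bonferroni are stricter than the main call, so they could not have added a gene. The others were Benjamini-Hochberg over genes with a result, with a mean of at least 1, or with a symbol. The lowest adjusted p, that of PPARGC1A, came to 0.256 over genes whose mean reached 1. Calls over all genes numbered 20 at 0.01 and 16 after Bonferroni, against 55. They numbered 63 over genes with a result, 58 over genes whose mean reached 1 and 38 over genes with a symbol. MPC1 passed under those 3 adjustments, with adjusted p-values of 0.0445, 0.0303 and 0.044, each from a smaller number of genes tested, and IGFBP1 did not pass at 0.01 or after Bonferroni. In the lists by role, 7 genes in place of 8 had an unadjusted p under 0.05 among the 103 with a mean of at least 1, and 8 among the 106 with no overlap on their strand. No paired analysis was possible because the authors' deposited table holds no values per library, and for the same reason libraries could not be left out in turn. Precision is limited by 4 pools per group and an unknown depth.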
